A study of Mus musculus with 12 samples.

Results

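The transcripts of the proteasome, the protease that degrades ubiquitin-tagged proteins, were followed in hearts of mice that lack MRPP3 in muscle. Members were taken by name, as every row whose listed gene name is Psm followed by a letter from a to g and a number. The rule found 49 of the 44450 loci in each file, which carry 48 gene symbols. Of these 49 loci, 46 reached at least 1 FPKM (sequenced fragments per unit of transcript length and per unit of library depth) in at least 3 of the 6 libraries and were tested. The other 3 were Psma8, a testis form of an outer ring subunit, at 0.369 to 0.545 FPKM in knockouts and 0.234 to 0.653 FPKM in controls, Psmb11, a subunit of thymic epithelium listed at 0 in all 6 libraries, and a second Psmd5 row that was also listed at 0 throughout. Total RNA was sequenced from the hearts of C57BL/6N mice at 11 weeks, with 3 libraries from knockouts and 3 from controls. Knockout mice carried Mrpp3 loxP/loxP and +/Ckmm, in which Cre is expressed from the promoter of muscle creatine kinase, and controls carried Mrpp3 loxP/loxP without it. Both groups thus had loxP sites in both copies of the gene, no group carried Cre alone, and non-muscle cells of the heart are not a target of this promoter. MRPP3 is the product of Prorp and the nuclease of mitochondrial RNase P. The comparison asks how proteasome transcripts differ when it is deleted.

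The proteasome is built from a barrel-shaped 20S core and caps that dock on its ends. The core stacks outer alpha rings, which gate the pore, on inner beta rings, of which the subunits encoded by Psmb5, Psmb6 and Psmb7 hold the active sites. In immune cells and after interferon signalling these are replaced by Psmb8, Psmb9 and Psmb10, which gives the immunoproteasome. The 19S regulatory particle recognises ubiquitin chains, removes them and unfolds the substrate, with a base that holds an ATPase ring and a lid that holds a deubiquitinase. Other caps, called activators, open the core without using ubiquitin. In heart muscle the proteasome takes part in the turnover of contractile proteins.

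The files give no read totals. From the spacing of low values, relative depth was estimated at 2.57, 2.06 and 2.19 in the knockouts and 1.32 and 1.35 in controls 2 and 3. Control 1 was set to 1. This estimate differed with genotype, but scaling between libraries, which is not given in the sources used here, could also change the spacing. Prorp, listed as 1110008L16Rik, stood at 0.441, 0.701 and 0.555 FPKM in knockouts, against 3.49, 2.64 and 3.23 FPKM in controls. Every knockout library was below every control for this gene (log2 fold change -1.77, limma adjusted p = 0.00063). Defining heart muscle genes were abundant in all libraries, with 8 markers summing to between 7640 and 16372 FPKM in knockouts and between 32543 and 37548 FPKM in controls, and 6 of the 8 fell. Of 12 leukocyte markers 6 were tested and 5 rose, with sums of 37.8 to 49.6 FPKM in knockouts and 23.6 to 24.4 FPKM in controls. Cd3e, a T cell marker, was listed at 0 in every control. Of 5 fibroblast markers 2 rose and none fell, or 40.0% past the limma threshold. Their log2 fold changes were above 0 for 3 and below 0 for 2, Dcn (-0.31, every knockout below every control) and Pdgfra (-0.26). None of 5 endothelial, 5 erythroid or 2 tested atrial markers passed. Over all tested loci 35.7% passed, 16.1% higher and 19.5% lower. Knockout replicate 2 stood apart, with 3320 FPKM summed over the 3 atrial markers (Myl7, Myl4 and Sln) and 21895 FPKM over the 5 erythroid markers. The other libraries had at most 118 and 2902 FPKM. The 118 FPKM of atrial markers were in knockout replicate 1, against 3.44 FPKM in knockout replicate 3 and at most 6.75 FPKM in controls. In bulk tissue, fewer cells of a type and less RNA per cell cannot be told apart.

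Most proteasome transcripts did not pass the test between the genotypes, while 3 of the 4 activators fell and 4 of the 17 tested genes of the regulatory particle rose. Of the 46 tested loci, 9 rose (Psma5, Psmb10, Psmc2, Psmd5, Psmd8, Psmd9, Psmd11, Psmd14 and Psmf1) and 3 fell (Psme1, Psme2 and Psme4). The calls are from limma, a linear model over all 12181 tested loci, with Benjamini-Hochberg adjusted p under 0.05. In all, 35.7% of the 12181 loci were called, 16.1% higher and 19.5% lower. The share of the 46 proteasome loci called was lower, at 26.1%, an order that turned round under 4 alternatives. Among these is no filter, where the shares cover unlike sets of loci. The share called higher was 19.6% and the share called lower 6.52%. The log2 fold change was above 0 for 39 of the 46 loci (84.8%, against 48.5% of all loci), with a median of 0.29 against -0.02 over all loci. Each log2 fold change is the knockout mean of log2(FPKM + 0.5) minus the control mean. The added 0.5 makes it too small for genes of low level. Every knockout library lay above every control for 19 proteasome loci and below every control for 3, where 23.6% of all loci were fully above and 28.7% fully below.

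**Figure D1:**
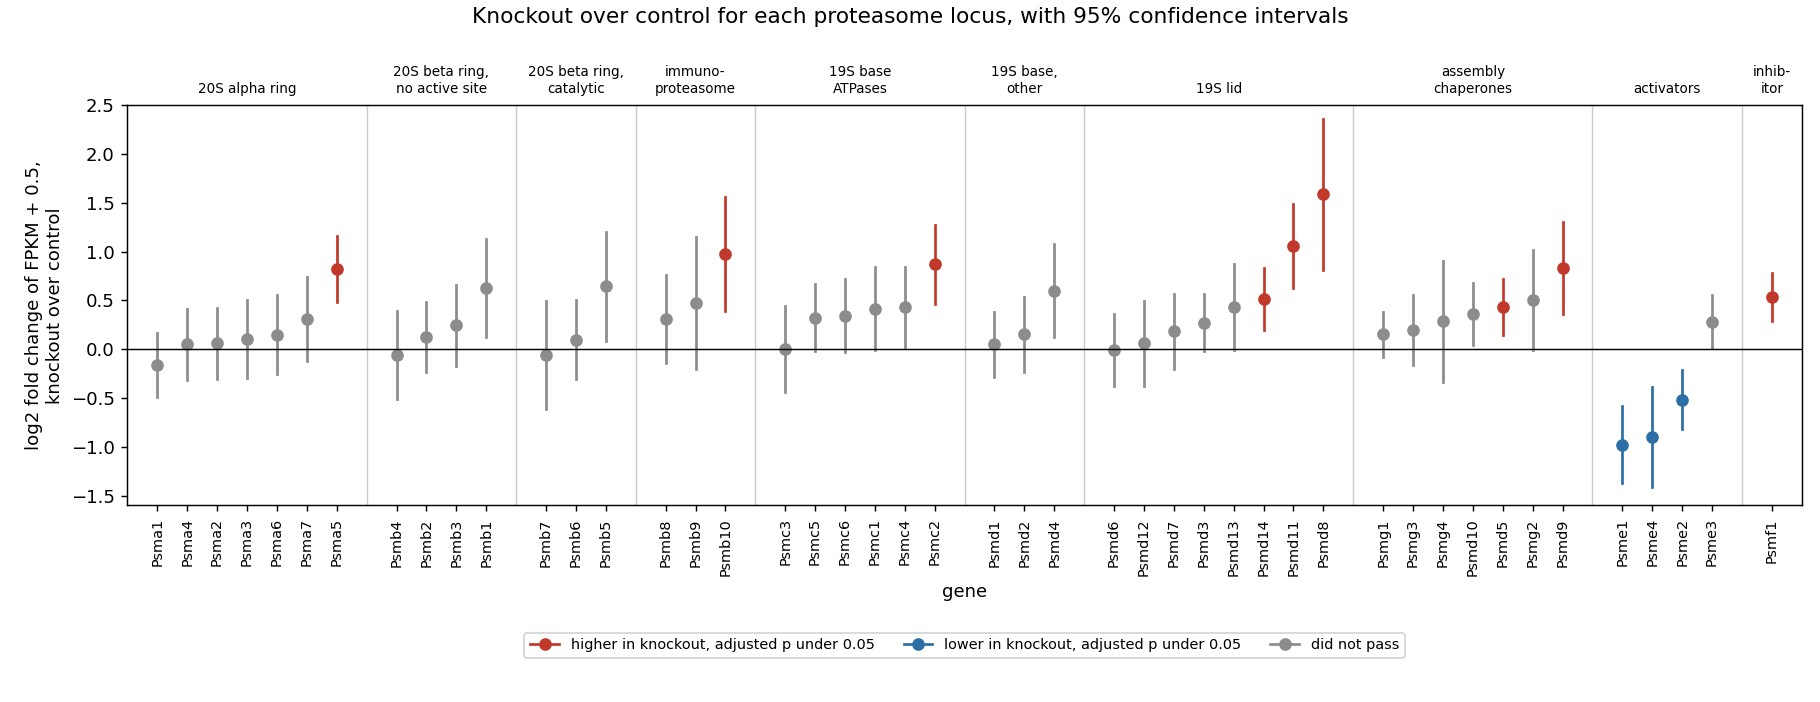
Log2 fold change of FPKM + 0.5, knockout over control, of each of the 46 tested proteasome loci (points) with its 95% confidence interval from limma (lines), ordered by class along the horizontal axis. Psmd8 stood highest at 1.59 and Psme1 lowest at -0.98, and 34 loci, in grey, did not pass the test.

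The counts depended on scaling and on single libraries. Scaling every library to one sum of FPKM moved the median of all loci to 0.20 and that of the proteasome loci to 0.52, and then 25 proteasome loci were higher and 2 lower (over all loci 3229 higher and 1400 lower, against 1966 and 2377 without it). The share called was then 58.7% of proteasome loci, while 4629 of all 12181 loci were called. Quantile normalization gave 19 higher and 3 lower, or 47.8% called, where 38.1% of all loci were called and 17.7% called higher. Without knockout replicate 2, the library with the most atrial and blood transcripts, 17 were higher and 3 lower. This was 43.5% called, where 37.3% of all loci were called and 17.7% called higher. With no filter, 8 were higher and 3 lower, or 23.9% of the 46, where 17.5% of all 22503 loci then tested were called. These shares are not alike, because the 46 had passed the 1 FPKM filter and the 22503 include loci that failed it. Without control replicate 1, 2 or 3, there were 5, 5 and 7 higher and 2, 1 and 2 lower, and all loci called fell to 2805, 2621 and 2785. Of the 12 calls, 6 were made under every one of the 13 alternatives, namely Psma5, Psmc2, Psmd8, Psmd11, Psmf1 and Psme1, and none of the 12 changed direction in any of them.

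**Figure D2:**
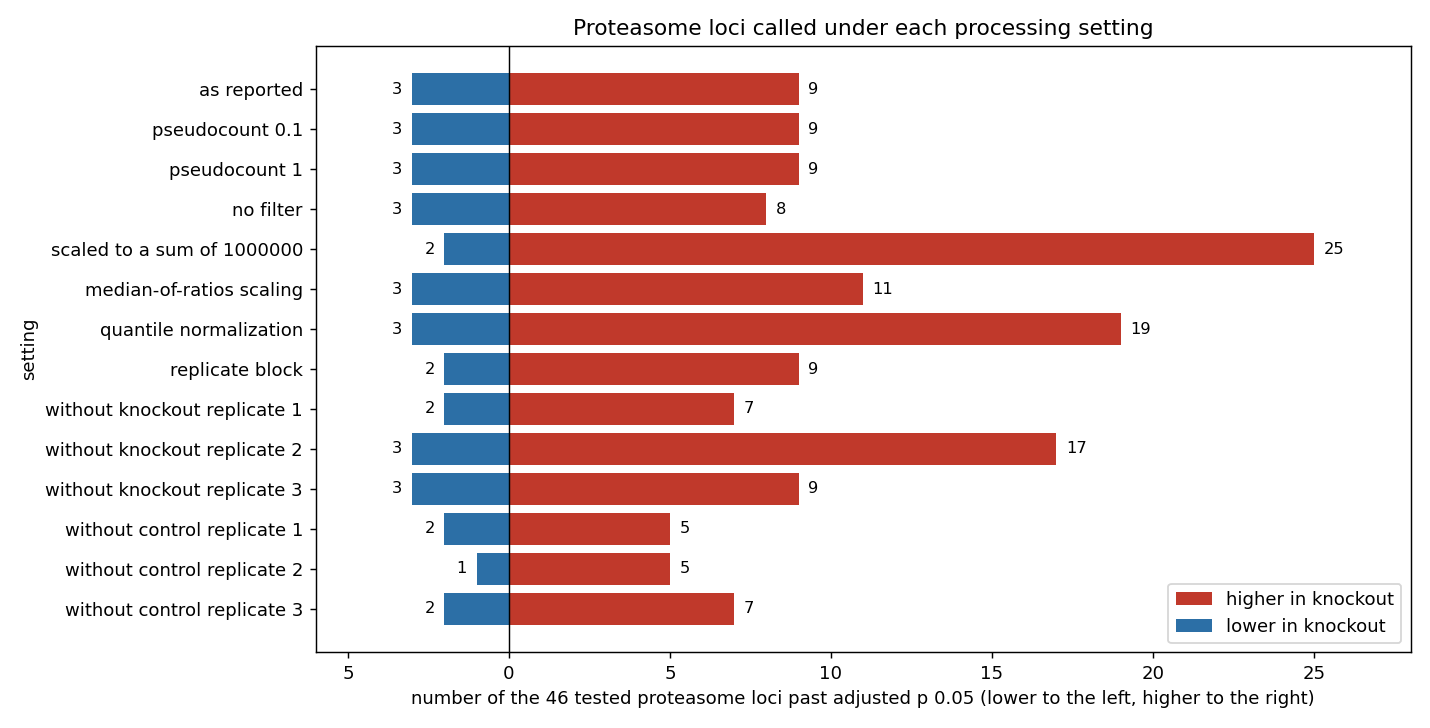
Number of the 46 tested proteasome loci called higher (bars to the right) or lower (bars to the left) in knockout hearts under the reported setting and 13 alternatives, with the count beside each bar. The count called higher ranged between 5 without control replicate 1 or 2 and 25 after scaling to one sum.

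The proteasome loci varied together from library to library. Among the knockouts, replicate 2 had the lowest value for 39 of the 46 loci and replicate 3 the highest for 37. Over all 12181 loci, the same libraries were lowest for 43.8% and highest for 43.2%. Among the controls, replicate 1 was lowest for 32 loci and replicate 3 highest for 29. The coefficient of variation within a genotype had a median of 21.9% in knockouts and 7.69% in controls for proteasome loci, against 16.7% and 10.2% for all loci.

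Proteasome genes are known targets of the transcription factors NRF1 and NRF2, which bind antioxidant response elements. To set promoters beside the changes, the 250 bases before and 50 after the annotated start were searched on both strands for the core letters TGACNNNGC or TGAGNNNGC. RefSeq (GRCm38.p6) gave a promoter for 40 of the 48 symbols, and 16 of the 40 held at least 1 match (40.0%), against 30.8% of 27025 genes. A match stood in 4 of the 9 genes that rose and in 1 of the 3 that fell. Stretches of 60 bases ahead of the start are shown 5′ to 3′ for the largest rise (Psmd8), the largest fall (Psme1), 3 genes that rose and had a match ahead of the start (Psmd9, Psmc2 and Psmd5), and the catalytic subunit gene Psmb5. Capitals mark the match, which in Psmd5 reads on the opposite strand. Psmd8 and Psme1 held neither form of these letters.
Psmd8, chr7:29180674-29180733, minus strand: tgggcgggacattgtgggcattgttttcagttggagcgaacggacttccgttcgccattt
Psmd9, chr5:123228130-123228189, plus strand: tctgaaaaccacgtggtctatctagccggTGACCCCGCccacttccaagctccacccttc
Psmc2, chr5:21786588-21786647, plus strand: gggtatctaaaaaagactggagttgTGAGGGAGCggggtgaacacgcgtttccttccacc
Psmd5, chr2:34871081-34871140, minus strand: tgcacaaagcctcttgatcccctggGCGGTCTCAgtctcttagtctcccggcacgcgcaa
Psmb5, chr14:54618008-54618067, minus strand: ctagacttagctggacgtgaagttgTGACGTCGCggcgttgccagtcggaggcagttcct
Psme1, chr14:55578434-55578493, plus strand: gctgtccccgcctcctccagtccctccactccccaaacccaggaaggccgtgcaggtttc

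Other letters were searched in the same windows. The letters TGATGNAA, found in elements bound by the stress factor ATF4 with C/EBP partners, stood in 1 of the 40 promoters (Psmd13), against 4.51% of genes. CCAAT stood in 14 of 40, against 41.1% of genes. A match is a description of letters in this window.

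In the 20S core, few genes passed in the reported setting, and the count depended on scaling. Of its 14 tested constitutive subunits, 1 rose and none fell, and the median log2 fold change was 0.12. The share called was 7.14%, where 35.7% of all loci were called. Scaling each library to one sum gave 6 core calls, where 4629 of all 12181 loci were called. Quantile normalization gave 5, where 38.1% of all loci were called. With a library left out, there were 1 to 3. In controls the subunits ranged between 19.8 FPKM (Psma3) and 118 FPKM (Psmb6), although the assembled core holds its subunits in equal numbers. Psmb6 was the highest in every library, and the highest subunit stood 5.11 to 6.82 times above the lowest in knockouts and 6.16 to 6.64 times in controls. Summed over the core genes, levels were 839 to 1281 FPKM in knockouts and 830 to 981 FPKM in controls.

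The alpha ring gates the entry to the core. Psma5, on chromosome 3 at 108256926 to 108279952 (GRCm38), was the alpha subunit that rose. It had 39.8, 29.2 and 38.6 FPKM in knockouts, against 19.4, 19.8 and 20.6 FPKM in controls. The groups did not overlap, and the controls lay close together. The log2 fold change was 0.82 ± 0.14 (SE; adjusted p = 0.0051 by limma). The other 6 tested alpha subunits had log2 fold changes between -0.16 (Psma1) and 0.31 (Psma7), with adjusted p of 0.23 to 0.82 and overlapping groups. Psma7 passed after quantile normalization (adjusted p = 0.027) and after scaling to one sum (adjusted p = 0.022). Psma6 starts 1729 bases beyond the end of Prorp on chromosome 12 (55384222 to 55418459). It had 69.1, 54.1 and 84.1 FPKM in knockouts and 60.02, 62.4 and 61.6 FPKM in controls, and the log2 fold change of 0.15 had a 95% interval of -0.25 to 0.55.

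The beta ring had no subunit past the threshold in the reported setting. Psmb1, one of the beta subunits without an active site, came closest. It had 106, 84.5 and 151 FPKM in knockouts, against 65.9, 72.9 and 75.5 FPKM in controls. All knockouts lay above all controls, but they differed widely among themselves, and the log2 fold change of 0.63 did not pass (SE 0.22, limma adjusted p = 0.055). Without knockout replicate 2 it was 0.82 and passed (adjusted p = 0.01), as it did under the 3 scaling alternatives. Psmb4, another such subunit, had 65.0, 60.5 and 91.0 FPKM in knockouts and 63.9, 73.6 and 86.1 FPKM in controls, with a log2 fold change of -0.06 that changed sign under 5 alternatives. Psmb2 and Psmb3 stood at 0.13 and 0.25. Both passed after scaling to one sum (limma adjusted p = 0.048 and 0.028), and Psmb3 also after quantile normalization (0.041).

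None of the 3 catalytic subunits passed in the reported setting, and whether they differed from each other was not tested. Psmb5, which holds the chymotrypsin-like site and shares its locus with Mir686, had 74.1, 55.6 and 104 FPKM in knockouts, against 40.3, 49.6 and 55.7 FPKM in controls. Knockout replicate 2 fell just below the highest control. The log2 fold change was 0.64 with a 95% interval of 0.08 to 1.20 (limma adjusted p = 0.073), and without that library it was 0.86 (adjusted p = 0.015). Psmb5 also passed after scaling to one sum (limma adjusted p = 0.011) and after quantile normalization (0.012). Psmb6, which holds the caspase-like site, had 118, 108 and 158 FPKM in knockouts and 111, 116 and 128 FPKM in controls, and the interval of its log2 fold change was -0.31 to 0.50. Psmb7, which holds the trypsin-like site, had 90.7, 61.8 and 120 FPKM in knockouts and 84.2, 93.1 and 97.8 FPKM in controls, and the interval was -0.61 to 0.49.

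**Figure D3:**
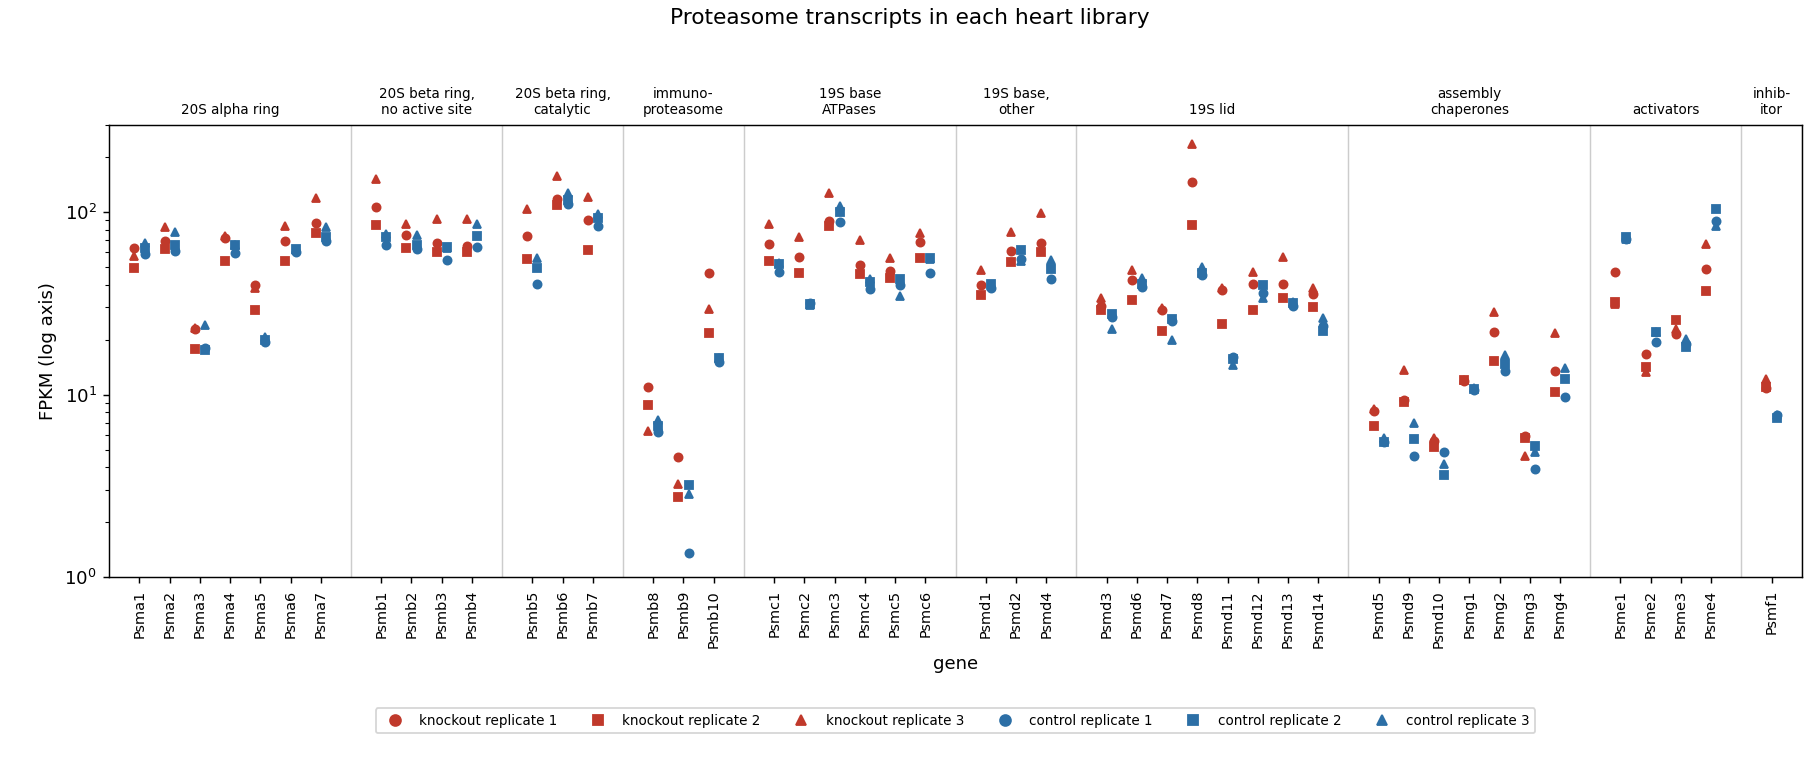
FPKM on a log axis of the 46 tested proteasome loci in each library, with knockout values (red) left of control values (blue) and a symbol for each replicate number. Psmd8 in knockouts reached 84.6 to 235 FPKM, above every other gene of the regulatory particle in mean level, while the immunoproteasome genes Psmb8 and Psmb9 stayed near the bottom in both groups.

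Of the immunoproteasome subunits, which replace the catalytic subunits in immune cells, 1 of 3 rose. The share called was thus 33.3%, near the 35.7% of all loci. Psmb10 lies on chromosome 8 at 105935728 to 105938392. It had 46.6, 21.8 and 29.5 FPKM in knockouts, against 15.1, 15.8 and 15.8 FPKM in controls. Every knockout was higher, and replicate 1 stood well above the others. The log2 fold change was 0.98 ± 0.25 (SE; adjusted p = 0.021 by limma). The call was lost without control replicate 1, 2 or 3 (adjusted p = 0.067, 0.062 and 0.063), with log2 fold changes of 0.95 to 0.99.

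Psmb8 and Psmb9 were low and lie on either side of Tap1 on chromosome 17 (34182030 to 34201454). Psmb8 had 10.9, 8.71 and 6.33 FPKM in knockouts, against 6.20, 6.77 and 7.25 FPKM in controls. Knockout replicate 3 lay within the controls, and the log2 fold change of 0.31 did not pass (95% interval -0.14 to 0.76, limma adjusted p = 0.24). Without that library it passed at 0.51 (adjusted p = 0.037). Psmb9 had 4.56, 2.76 and 3.24 FPKM in knockouts, against 1.35, 3.18 and 2.86 FPKM in controls, and also did not pass (log2 fold change 0.48, adjusted p = 0.23). Knockout replicate 1 was the highest of the 6 libraries for all 3 immunoproteasome genes, whereas replicate 3 was the highest knockout for 37 of the 46 proteasome loci.

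Each immunoproteasome subunit was set against the subunit it replaces. The ratio of Psmb10 to Psmb7 was 0.514, 0.353 and 0.245 in knockouts, against 0.179, 0.170 and 0.162 in controls. All knockout ratios were above all control ratios, and the mean log2 ratio differed by 1.06 (exact two-sided permutation p = 0.10, the smallest that 3 against 3 libraries can give, and 0.30 adjusted over the 3 pairs). The ratio of Psmb8 to Psmb5 was 0.148, 0.157 and 0.0608 in knockouts and 0.154, 0.137 and 0.130 in controls. The groups overlapped (difference -0.32, exact permutation p = 0.90), and without knockout replicate 3 the difference was 0.12. The ratio of Psmb9 to Psmb6 was 0.0388, 0.0254 and 0.0206 in knockouts and 0.0122, 0.0274 and 0.0224 in controls (difference 0.48, exact permutation p = 0.50). The immunoproteasome subunits together made up 18.02, 12.9 and 9.28% of the FPKM of all 6 catalytic genes in knockouts, and 8.77, 9.05 and 8.45% in controls. The leukocyte marker sum was higher in every knockout than in any control (37.8, 49.6 and 41.4 FPKM in knockouts against 24.4, 24.2 and 23.6 FPKM in controls), and its part in the Psmb10 result was not tested.

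**Figure D4:**
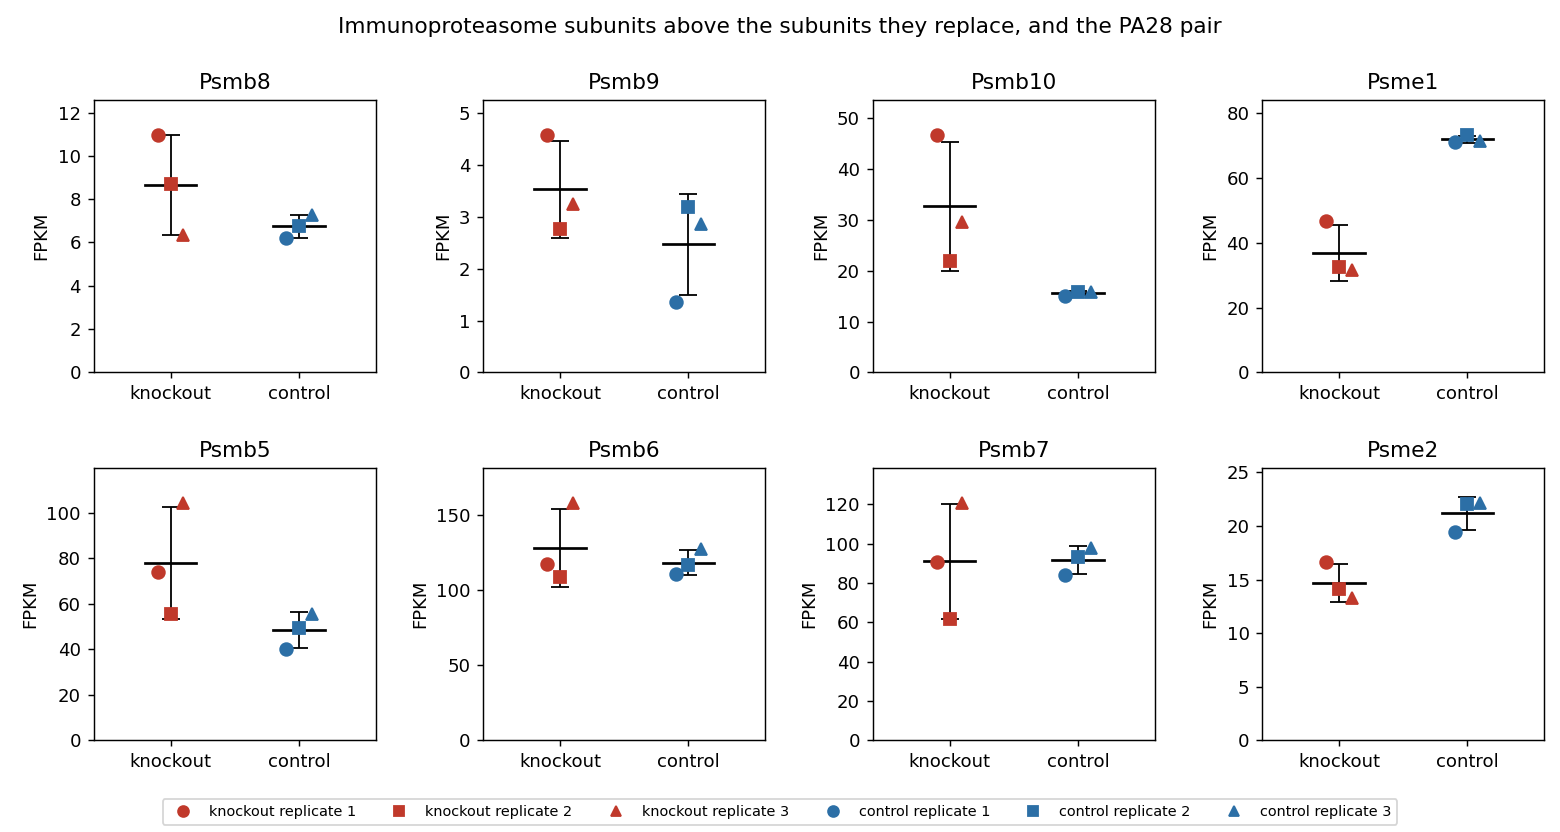
FPKM in each library of the immunoproteasome subunits Psmb8, Psmb9 and Psmb10 (upper row) above the subunits they replace (lower row), and of the activator partners Psme1 and Psme2 (right), knockout left of control, with the mean and SD (n = 3 each) in black. Psmb10 and the activator pair separate the genotypes, and the other genes overlap.

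The regulatory particle held the largest rises. Of its 17 tested genes, 4 rose and none fell, with a median log2 fold change of 0.35, and every knockout was above every control for 10 of them. The share called was 23.5%, where 35.7% of all loci were called and 16.1% called higher. Over all loci, 23.6% lay fully above. Scaling each library to one sum gave 11 calls (4629 of all 12181 loci called), quantile normalization 10 (38.1% of all loci), and leaving out knockout replicate 2 gave 9 (37.3% of all loci).

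Psmd8, which encodes the lid subunit RPN12, changed most. It lies on chromosome 7 at 29174187 to 29180673 on the minus strand, and its upstream bases are among those shown above. It had 146, 84.6 and 235 FPKM in knockouts, against 44.9, 46.4 and 50.1 FPKM in controls. Even the lowest knockout was above every control, and the knockouts were far more spread. The means were 155 ± 75.4 FPKM in knockouts and 47.1 ± 2.69 FPKM in controls (SD, n = 3 each), and the log2 fold change was 1.59 ± 0.33 (SE; adjusted p = 0.0098 by limma). By mean FPKM it ranked 1 of the 17 genes in knockouts and 6 in controls. The lid subunit gene Psmd11 (RPN6, which clamps the lid to the core) had the lowest mean of the 17 in controls. It had 37.3, 24.3 and 38.4 FPKM in knockouts, against 16.1, 15.7 and 14.5 FPKM in controls, and the log2 fold change was 1.06 ± 0.19 (SE; adjusted p = 0.0050 by limma).

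Psmd14, which encodes the lid deubiquitinase RPN11, had 35.7, 30.03 and 38.2 FPKM in knockouts, against 23.6, 22.2 and 26.2 FPKM in controls. The groups did not overlap (log2 fold change 0.52 ± 0.14, SE; adjusted p = 0.023 by limma). The call was lost without knockout replicate 1 (adjusted p = 0.065) and without control replicate 1 or 2 (0.077 and 0.098). The other 5 lid genes, Psmd3, Psmd6, Psmd7, Psmd12 and Psmd13, had log2 fold changes between -0.0029 (Psmd6) and 0.43 (Psmd13) and adjusted p of 0.11 to 0.99. Of these 5, Psmd13 passed without knockout replicate 2 (limma adjusted p = 0.023), after quantile normalization (0.018) and after scaling to one sum (0.013). Psmd3 passed after scaling to one sum (0.019). Within the lid, then, the largest rise among proteasome genes stood beside subunits that did not pass in the reported setting.

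In the base, the ATPase ring unfolds substrates and feeds them into the core. Psmc2 (RPT1) had 57.0, 46.2 and 72.9 FPKM in knockouts, against 31.6, 31.4 and 30.8 FPKM in controls. The controls agreed within 1 FPKM and all knockouts were higher (log2 fold change 0.87 ± 0.17, SE; adjusted p = 0.0081 by limma). The other 5 ATPase genes did not pass, with log2 fold changes between 0.00 (Psmc3) and 0.43 (Psmc4) and adjusted p of 0.093 to 0.99. Of these, Psmc1, Psmc4 and Psmc6 passed without knockout replicate 2 (adjusted p = 0.018, 0.028 and 0.026). They and Psmc5 also passed after scaling to one sum (limma adjusted p = 0.0083 to 0.017) and after quantile normalization (0.010 to 0.035). Psmd4, which encodes the ubiquitin receptor RPN10, had 67.9, 59.97 and 98.9 FPKM in knockouts, against 43.2, 48.7 and 54.5 FPKM in controls. All knockouts were higher, but the log2 fold change of 0.60 fell short of the threshold (limma adjusted p = 0.055), and passed without knockout replicate 2 (0.75, adjusted p = 0.02). Psmd2, a scaffold of the base, had 61.2, 53.4 and 77.8 FPKM in knockouts and 55.5, 61.9 and 53.6 FPKM in controls (95% interval of the log2 fold change -0.23 to 0.54). Psmd1, the other scaffold, shares its locus with Armc9 and Gm21972 and stood at 0.05.

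Assembly chaperones bind unfinished rings and leave the finished particle. Of 7 tested, 2 rose and none fell, both of them chaperones of the base. The share called was 28.6%, where 35.7% of all loci were called and 16.1% called higher. Psmd9 had 9.37, 9.11 and 13.7 FPKM in knockouts, against 4.63, 5.69 and 7.02 FPKM in controls. The groups did not overlap (log2 fold change 0.83 ± 0.20, SE; adjusted p = 0.018 by limma), and the call was lost without control replicate 1 or 2 (adjusted p = 0.062 and 0.057). Psmd5 had 8.16, 6.71 and 8.39 FPKM in knockouts, against 5.50, 5.47 and 5.80 FPKM in controls (log2 fold change 0.43, limma adjusted p = 0.031). Its call was lost with any library other than knockout replicate 2 left out (adjusted p = 0.067 to 0.10), and with no filter (0.053). The chaperones Psmd10, Psmg1, Psmg2, Psmg3 and Psmg4 had log2 fold changes of 0.15 to 0.50 and did not pass (adjusted p of 0.073 to 0.43). Of these, Psmd10, Psmg1 and Psmg2 passed after scaling to one sum (limma adjusted p = 0.025, 0.032 and 0.018). Psmg2 also passed without knockout replicate 2 (log2 fold change 0.74, limma adjusted p = 0.010). For Psmg1, which averaged 12.0 ± 0.126 FPKM in knockouts and 10.7 ± 0.128 FPKM in controls (SD, n = 3 each), the groups were apart but the difference was small. The Psmg3 locus also carries Gm26938 and Tmem184a.

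The activators were the only class with falls. Psme1 and Psme2 encode the alpha and beta subunits of PA28, a ring-shaped cap that interferon induces. Both lie on chromosome 14, at 55578494 to 55581527 and 55587440 to 55591101. Psme1 had 46.7, 32.3 and 31.5 FPKM in knockouts, against 71.1, 73.0 and 71.3 FPKM in controls. The controls were almost equal and every knockout was far below them. The means were 36.8 ± 8.56 FPKM in knockouts and 71.8 ± 1.07 FPKM in controls (SD, n = 3 each), a ratio of 0.513, and the log2 fold change was -0.98 ± 0.17 (SE; adjusted p = 0.0049 by limma).

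Psme2 fell less, with 16.7, 14.1 and 13.3 FPKM in knockouts, against 19.4, 22.1 and 22.1 FPKM in controls. The groups did not overlap, and the log2 fold change was -0.52 ± 0.13 (SE; adjusted p = 0.019 by limma). The call was lost after scaling to one sum (-0.30, adjusted p = 0.13) and without control replicate 2 or 3 (adjusted p = 0.080 and 0.073). Psme2b, a near copy on a locus shared with 9930111J21Rik1, had 11.2, 8.90 and 9.85 FPKM in knockouts and 11.6, 13.7 and 14.6 FPKM in controls, and how fragments of the copies were assigned is not given in the sources used here. The ratio of Psme1 to Psme2 was 2.80, 2.29 and 2.37 in knockouts, below the 3.66, 3.31 and 3.22 of the controls (exact two-sided permutation p = 0.10, the smallest possible).

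Psme4 encodes PA200, a single-chain nuclear cap, and lies on chromosome 11 at 30771775 to 30881150. It had 48.5, 36.7 and 66.4 FPKM in knockouts, against 89.3, 104 and 83.4 FPKM in controls. All knockouts were lower, and the log2 fold change was -0.90 ± 0.22 (SE; adjusted p = 0.018 by limma). The call was lost without knockout replicate 1 (adjusted p = 0.051) and without control replicate 1 or 2 (0.055 and 0.071). Psme3, the nuclear member of the PA28 family, went the other way without passing. It had 21.6, 25.7 and 22.9 FPKM in knockouts, against 18.99, 18.1 and 20.3 FPKM in controls (log2 fold change 0.28, 95% interval 0.01 to 0.56, limma adjusted p = 0.098), and passed after scaling to one sum (adjusted p = 0.019). Heart muscle markers were lower in knockouts in the same libraries, with 6 of 8 called lower, where 19.5% of all loci were called lower. Their sums were 15149, 7640 and 16372 FPKM in knockouts against 32543, 35373 and 37548 FPKM in controls. Their part in the falls of Psme1, Psme2 and Psme4 was not tested.

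Psmf1 encodes PI31, which binds the core and was first described as an inhibitor. It had 10.9, 10.9 and 12.2 FPKM in knockouts, against 7.73, 7.48 and 7.74 FPKM in controls. Both groups were tight and did not overlap (log2 fold change 0.54 ± 0.11, SE; adjusted p = 0.0081 by limma). The call was made in all 13 alternatives, at adjusted p of 0.0021 to 0.043.

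Genes that work with the proteasome were followed in lists. Among 13 partners (the core maturation factor Pomp, ubiquitin receptors, deubiquitinases and cofactors), none rose and 1 fell. Their median log2 fold change was -0.09, and 7.69% were called, against 35.7% of all loci. The one that fell was Zfand5, a zinc finger protein that stimulates the proteasome, at 33.1, 30.1 and 35.1 FPKM in knockouts, against 44.6, 45.7 and 46.7 FPKM in controls (log2 fold change -0.48, limma adjusted p = 0.017). Its call was lost after scaling to one sum (-0.25, adjusted p = 0.090) and without any control replicate (adjusted p = 0.056, 0.073 and 0.067).

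Among 14 shuttle and extraction factors, which bring ubiquitin-tagged proteins to the proteasome, 3 rose and none fell. The share called was 21.4%, where 35.7% of all loci were called and 16.1% called higher. Sqstm1 (p62), a receptor that hands such proteins to autophagy, had 539, 420 and 806 FPKM in knockouts, against 128, 124 and 141 FPKM in controls (log2 fold change 2.11 ± 0.25, SE; adjusted p = 0.0011 by limma). The shuttle factor Rad23b averaged 69.6 ± 8.04 FPKM in knockouts and 45.4 ± 0.379 FPKM in controls (SD, n = 3 each, limma adjusted p = 0.011), a call lost by a narrow margin without control replicate 2 (adjusted p = 0.0504). Nploc4, a cofactor of the extraction ATPase, averaged 26.4 ± 7.62 FPKM in knockouts and 16.4 ± 1.85 FPKM in controls (SD, n = 3 each, limma adjusted p = 0.042), a call lost without knockout replicate 1 (adjusted p = 0.053) or any control (0.12, 0.070 and 0.12), and with no filter (0.079). Nfe2l1 (NRF1), the main transcription factor of proteasome genes, had 162, 142 and 171 FPKM in knockouts and 123, 150 and 145 FPKM in controls, and did not pass (limma adjusted p = 0.36), nor did Nfe2l2 (NRF2, adjusted p = 0.82). These factors were picked for mention with their values known.

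Of 6 ubiquitin and ubiquitin-activating genes, Rps27a was the 1 that rose (16.7%, against 16.1% of all loci), and none fell. It encodes ubiquitin fused to a ribosomal protein and had 10.2, 9.06 and 10.3 FPKM in knockouts, against 3.84, 5.58 and 5.18 FPKM in controls (log2 fold change 0.96, limma adjusted p = 0.0036). Of 12 genes of antigen presentation and interferon response, 3 rose and 1 fell, or 33.3% called, near the 35.7% of all loci. The peptide transporter gene Tap1, between Psmb9 and Psmb8, had 6.48, 5.29 and 4.01 FPKM in knockouts, against 1.88, 2.80 and 3.28 FPKM in controls (log2 fold change 0.87, limma adjusted p = 0.022). H2-K1, a class I chain, averaged 93.2 ± 12.7 FPKM in knockouts and 55.2 ± 12.3 FPKM in controls (SD, n = 3 each, limma adjusted p = 0.022). Erap1, a trimming peptidase, was lower at 6.62 ± 1.65 FPKM in knockouts and 11.0 ± 0.575 FPKM in controls (limma adjusted p = 0.016). The calls of Tap1 and H2-K1 were lost without knockout replicate 1 (adjusted p = 0.066 and 0.068) or control replicate 1 (0.064 and 0.062), and that of Tap1 also without control replicate 2 and with no filter (0.055 each). The calls of H2-K1 and Erap1 were lost without control replicate 3 (adjusted p = 0.053 and 0.060), and that of Erap1 also after scaling to one sum (log2 fold change -0.51, adjusted p = 0.072). Of the interferon regulatory factor genes in this list, Irf1 and Irf9 did not pass (limma adjusted p = 0.24 and 0.20), and Irf7 did, close to the threshold (0.045). The call of Irf7 was not followed across the alternatives. All 3 factors were likewise picked with their values known.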

How the data were processed

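The authors deposited 1 file for each of 6 total RNA libraries, with an FPKM value for each of 44450 loci, per the file headers. Libraries followed the TruSeq protocol with random hexamers after Ribo-Zero rRNA removal, per the labels' protocols. The submitters' processing notes name Cufflinks 2.2.1, Cuffdiff, StringTie 1.1.0, HISAT 0.1.6 and HISAT2 2.0.1, with builds GRCm38 and mm10. The sources used here do not give their roles, settings or annotation, nor any scaling between libraries or use of strand. Another 6 libraries, made with PARE (a method that sequences RNA ends), were not analysed here.

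Groups and replicate numbers came from the source names. The labels do not say that each library is a separate animal. The p-values then reflect only how far these libraries spread, which may be technical. FPKM are not counts, and no count model was used. Values were analysed as log2(FPKM + 0.5) with limma 3.58.1 in R 4.3.3 (two-sided moderated test, variance prior following mean level), over the 12181 loci that reached 1 FPKM in 3 or more libraries. P-values were Benjamini-Hochberg adjusted over all of them, with a threshold of 0.05. The fit was tested on simulated data. Ratios were tested by exact permutation in SciPy 1.17.1. Relative depth was read from the most frequent ratio of values under 1 FPKM between libraries. Overlapping genes share a locus, without known use of strand. Pseudogenes of proteasome genes can share fragments with them.

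Members, lists, motifs and tests were chosen with earlier results of these data known. Named by rule were the catalytic and immunoproteasome subunits, activators and inhibitor. From other classes it took the called members, at most 4 and by size of change, or where none passed the 2 of highest level, and from each partner list up to 3 called genes. Others are named to account for every member. Of the list members 1, Paaf1, was not analysed here, and the result of another is not reported here. Positions, strands and promoter sequences are from RefSeq (GRCm38.p6).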

Additional observations from a re-analysis of the deposited data

How the results depend on the processing

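Alternatives were other pseudocounts, no filter, 3 scalings, a replicate block and leaving out each library. With a library left out, counts ranged as follows: all loci called 2621 to 4542, proteasome loci higher 5 to 17 and lower 1 to 3, core loci called 1 to 3, immunoproteasome 0 to 2, regulatory particle 3 to 9, activators and inhibitor 2 to 4. Scaling to one sum gave 25 proteasome loci higher, 6 core and 11 regulatory particle calls. Quantile normalization gave 19, 5 and 10, and median-of-ratios scaling 2 core calls. The cause was not tested. Leave-one-out differences in log2 ratio were -0.56 to 0.12 for Psmb8 to Psmb5, 0.14 to 0.72 for Psmb9 to Psmb6 and 0.79 to 1.33 for Psmb10 to Psmb7.

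Direction turned only for 11 loci that did not pass. After scaling to one sum, log2 fold changes became 0.066 (Psma1), 0.17 (Psmb4), 0.17 (Psmb7) and 0.23 (Psmd6). After quantile normalization they became 0.025 (Psmb4), 0.044 (Psmb7) and 0.059 (Psmd6), and after median-of-ratios scaling 0.034 (Psmd6). With a library left out, the ranges were -0.048 to 0.15 (Psma2), -0.032 to 0.19 (Psma4), -0.0034 to 0.31 (Psma6), -0.24 to 0.056 (Psmb4), -0.064 to 0.20 (Psmb6), -0.29 to 0.19 (Psmb7), -0.18 to 0.12 (Psmc3), -0.070 to 0.15 (Psmd1), -0.088 to 0.25 (Psmd12) and -0.12 to 0.14 (Psmd6).

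Same-numbered libraries deviated from the means of their groups with correlations of -0.083, -0.064 and -0.0063. These values cannot decide whether the replicate numbers pair the libraries, because deviations from a mean of 3 libraries depend on each other. With the replicate block 3343 loci were called (4343 without it), 9 proteasome loci higher and 2 lower, with Psmd4 gained (adjusted p = 0.049) and Psme2 (0.058) and Psmd5 (0.064) lost. It also ended the calls of Nploc4 (0.069), Zfand5 (0.053), Tap1 (0.056) and H2-K1 (0.054). Depth is estimated only as ratios between libraries, so no counting interval is given.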
